A study of Mus musculus with 6 samples.

Results

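Tgfb3, a ligand of the transforming growth factor beta (TGF-beta) family, and Tgfbr2, the receptor that binds such ligands, were followed across 3 clones of the mouse lymphoma line EL4. A probe set, the group of probes that reports 1 transcript on an Affymetrix array, was taken when a deposited list gave it the full name of either gene. This found 2 of the 1512 genes with a deposited name, each with 1 probe set, 1417455_at for Tgfb3 and 1426397_at for Tgfbr2. A deposited name counts here only where it is the probe set's single name and not a label such as a clone or predicted gene. Such names cover 1938 of the array's 45037 probe sets that are not controls. The other 43099 are treated as unnamed, so further probe sets of either gene may lie among them.

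EL4 is a T cell lymphoma line of mouse origin. The clone WT2 is labelled non-adherent, non-metastatic and sensitive to PMA. PMA is a phorbol ester, a drug that activates protein kinase C. V7 is labelled PMA-resistant, adherent and metastatic, and C5 carries the same labels except that it is highly metastatic. All 3 clones were kept overnight without serum and received no other treatment, and 2 aliquots of each were hybridised, 6 arrays in all. Each phenotype that sets WT2 apart rests on 1 clone, and nothing in the labels says that the aliquots were grown apart. The p-values therefore rest on a spread between aliquots that may be technical.

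As background, TGF-beta ligands are secreted in a latent form and, once freed, bind a type II receptor. The type II receptor then phosphorylates a type I receptor, Tgfbr1 for the TGF-beta ligands, which phosphorylates Smad2 and Smad3, and these enter the nucleus with Smad4. In T cells the pathway is known for restraining proliferation, for roles in regulatory T cells and for inducing the integrin subunit Itgae.

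The arrays had been scaled by the authors to a common 2% trimmed mean of 125, and their median signals ran from 15.8 to 21.5. Aliquots of one clone correlated across tested probe sets at 0.956 to 0.974, V7 with C5 arrays at 0.966 to 0.968, and WT2 with the other clones at 0.876 to 0.892. The ratio of 3′ to 5′ control signal of Gapdh, a sign of RNA or labelling quality, was 1.51 and 1.77 in WT2 and 0.829 to 1.15 on the other 4 arrays, so it moved with the clone in every comparison against WT2. That of beta-actin was 1.83 and 2.04 in WT2 and 1.87 to 2.91 on the others. The part of either in the results was not tested. T cell identity rested on the few markers with a name, 2 of 11. The T cell receptor subunit Cd3e gave signals of 1867 to 2149 in WT2, 917 to 1048 in V7 and 901 to 1162 in C5. The zeta chain Cd247, by contrast, gave 574 to 618 in WT2 and 1.03 to 9.25 in V7 and C5. These Cd247 signals are of the brightest of its 3 named probe sets, the only one shown. Of the markers of other cell types, none of 5 for B cells, 5 for myeloid cells and 4 for epithelium had a named probe set. The fibroblast marker Pdgfra (1 named of 6) gave 1.88 to 2.70 in WT2 and 47.2 to 85.8 in V7 and C5, and the endothelial marker Pecam1 (1 named of 4) gave 18.4 to 51.0 and 48.4 to 79.5. The mast cell protease Cpa3 (1 named of 3) gave 1735 to 2259 in WT2 and 1.64 to 11.4 in V7 and C5. Their part in the results was not tested.

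The ligand Tgfb3 was low in WT2 and higher in V7 and C5. Its signal was 5.36 and 29.5 in the WT2 aliquots, 123 and 177 in those of V7 and 107 and 122 in those of C5. All 4 arrays of the PMA-resistant, adherent clones lay above both WT2 arrays, and the lower V7 array (122.8) lay just above the higher C5 array (122.3). The means were 17.4 ± 17.1 in WT2, 149.7 ± 38.1 in V7 and 115 ± 10.9 in C5 (SD, n = 2 in each clone).

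The receptor Tgfbr2 ran the other way and was highest in WT2. Its signal was 311 and 310.1 in the WT2 aliquots, 81.5 and 66.4 in those of V7 and 85.3 and 87.1 in those of C5. Both WT2 arrays lay far above the other 4, and both C5 arrays lay slightly above both V7 arrays. The means were 310.5 ± 0.660 in WT2, 73.9 ± 10.6 in V7 and 86.2 ± 1.29 in C5 (SD, n = 2 each). The clones were therefore ordered WT2, C5, V7 from low to high for Tgfb3, and V7, C5, WT2 for Tgfbr2. V7 and C5, neighbours in both orders, were not separated by the test given below.

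**Figure D1:**
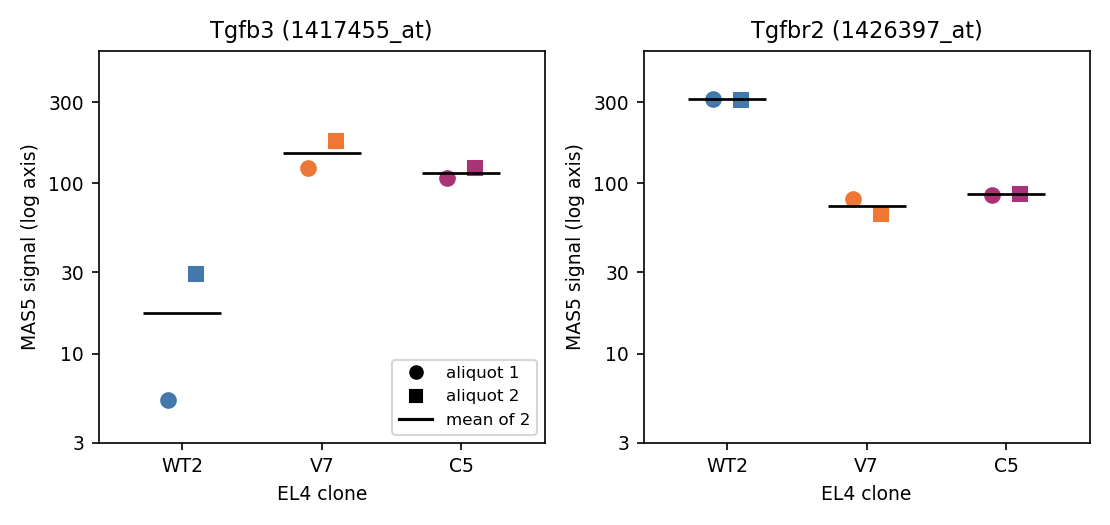
MAS5 signal of the Tgfb3 and Tgfbr2 probe sets on a log axis, by EL4 clone. Points are the 2 aliquots of each clone and bars their mean. For Tgfb3 the WT2 points sit at 5.36 and 29.5, below the 4 others at 107 to 177, and for Tgfbr2 the WT2 points sit at 310.1 and 311, above the 4 others at 66.4 to 87.1.

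The promoter of Tgfbr2 alone is shown, because Tgfb3 had no promoter entry. Any link of this sequence to the lower signal in V7 and C5 was not tested. RefSeq's promoter table, which matched 1 of the 2 genes, holds 300 bases for Tgfbr2, from 250 before to 50 after the annotated start, at chr9:116175314-116175613 on the minus strand of GRCm38.p6. It is printed 5′ to 3′, with the motif matches described next in capitals.
Tgfbr2: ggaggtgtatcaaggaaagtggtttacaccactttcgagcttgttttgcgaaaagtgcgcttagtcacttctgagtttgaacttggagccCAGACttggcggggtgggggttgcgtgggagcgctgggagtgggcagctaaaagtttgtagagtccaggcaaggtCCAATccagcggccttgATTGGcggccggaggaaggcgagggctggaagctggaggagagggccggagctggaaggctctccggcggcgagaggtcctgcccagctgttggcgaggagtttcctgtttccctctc
Of 6 motifs searched on both strands, 2 matched. CCAAT or its reverse ATTGG, the CCAAT box, began 85 and 68 bases before the start and occurs in 37.4% of 32851 promoter windows of this length. CAGAC or its reverse GTCTG, a short element that Smad proteins bind, began 160 bases before it and occurs in 49.6% of windows. The GC box GGGCGG, the AP-1 site TGANTCA, the cAMP response element TGACGTCA and the ETS site CCGGAA were not in this window. In these letters they occur in 35.7%, 7.81%, 1.79% and 14.9% of windows. Other forms of these sites, ETS sites included, were not searched for and may be present. The window's GC content was 59.0%, against a median of 52.7%.

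The comparison of V7 with WT2 sets a metastatic, adherent, PMA-resistant clone against one with none of these properties. Tgfb3 was higher in V7 by 3.01 on the log2 scale (SE 0.44, limma adjusted p = 4.46e-04), an 8.04-fold change with a 95% interval from 4.11 to 15.7. Tgfbr2 fell by 2.01 (SE 0.19, limma adjusted p = 1.84e-05), a 4.01-fold change with an interval from 2.99 to 5.38. A change here is a difference of log2(signal + 5.03), where 5.03 is the 25th percentile over all arrays, and a probe set was called at an adjusted p below 0.05 and at least 2-fold. Of the 27022 probe sets tested, 12.5% were called, 1430 (5.29%) as higher and 1955 (7.23%) as lower in V7. The median change was 1.53 among the higher calls and −1.61 among the lower calls, among which the Tgfbr2 change ranked 655 by size. Both probe sets carry a name because the authors had listed them as different between these clones on these samples, so neither call is independent evidence. The arrays of C5 took no part in that choice. Those of WT2 and V7 did, and the comparisons of C5 with these clones use them again, so neither is free of the choice.

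The size of the Tgfb3 change depended on WT2. Its aliquots differed 5.50-fold, against 1.44-fold in V7 and 1.14-fold in C5, and the lower of them was close to the added constant. Without WT2 aliquot 1 the change was 2.14 (4.41-fold) and without WT2 aliquot 2 it was 3.87 (14.7-fold), called in each case. With the median signal of 18.1 added in place of 5.03 it was 2.31 (4.96-fold), also called. The Tgfbr2 change stayed between −2.14 and −1.84 under every alternative run.

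The authors' deposited table for these clones gave Tgfb3 as 9.66-fold up (adjusted p = 0.0136) and Tgfbr2 as 3.74-fold down (adjusted p = 0.00832). For Tgfb3 in WT2 the authors' deposited table gave a log2 mean of 4.12 with a standard error of 0.176, whereas the signals give 3.65 with a standard error of 1.23. For V7 the authors' deposited table gave 7.39 with a standard error of 0.00989, against 7.20 and 0.262 from the signals. For Tgfbr2 the means in the authors' deposited table were 7.96 in WT2 and 6.06 in V7, against 8.28 and 6.20. The lists had thus been summarised in another way than the signals, and the spread between the WT2 aliquots of Tgfb3 was narrower in them.

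C5 against WT2 gave the same directions. Tgfb3 was higher in C5 by 2.66 (SE 0.44, limma adjusted p = 9.95e-04), 6.30-fold with an interval from 3.22 to 12.3. Tgfbr2 fell by 1.79 (SE 0.19, limma adjusted p = 4.32e-05), 3.46-fold with an interval from 2.58 to 4.64. In this comparison 13.0% of tested probe sets were called, 1509 (5.58%) as higher and 2015 (7.46%) as lower in C5. It shares the WT2 arrays with the comparison above, so the pair of results is not a repeat: without WT2 aliquot 1 the Tgfb3 change was 1.79 (3.46-fold), and without WT2 aliquot 2 it was 3.52 (11.5-fold). With the median signal added it was 1.99 (3.97-fold). All 3 passed.

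C5 against V7 asks whether the highly metastatic clone differs from the metastatic one. Neither gene was called, and 0.0999% of tested probe sets were, 27 in number. Tgfb3 differed by −0.35 (SE 0.44, limma adjusted p = 0.968), and the 95% interval of the C5 to V7 ratio ran from 0.401 to 1.53. Tgfbr2 differed by 0.21 (SE 0.19, limma adjusted p = 0.938), with an interval of the ratio from 0.866 to 1.56. The interval for Tgfbr2 leaves out a 2-fold change in either direction, and that for Tgfb3 leaves out a 2-fold rise but not a 2-fold fall in C5. Neither probe set was in the authors' deposited table for these clones, which lists 102.

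**Figure D2:**
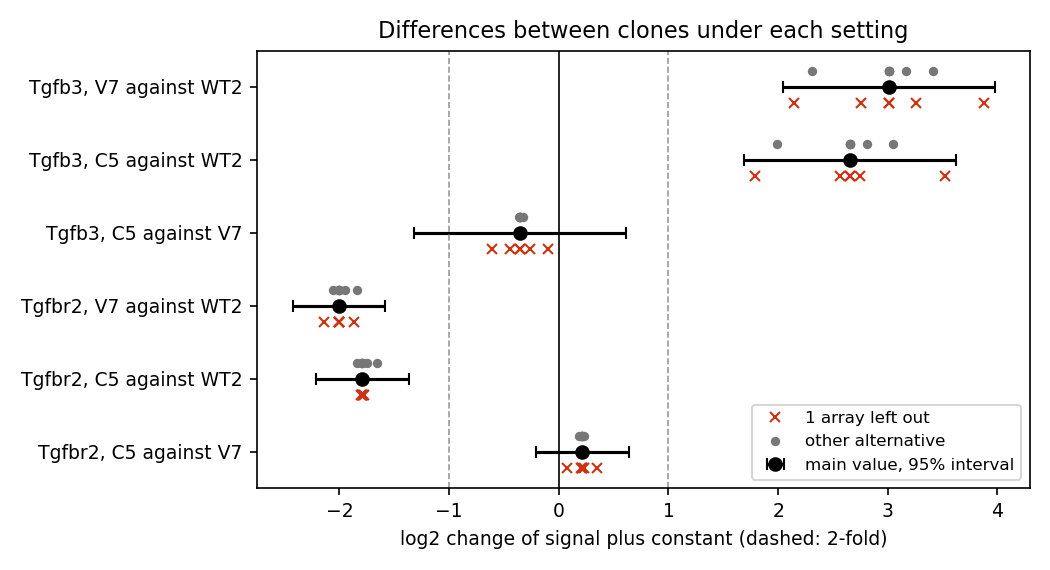
Log2 change of Tgfb3 and Tgfbr2 in each comparison of clones. Black points with bars are the values reported and their 95% intervals, red crosses leave out 1 array each, grey points are the other alternatives, and dashed lines mark 2-fold. The crosses for Tgfb3 against WT2 spread from 2.14 to 3.87 in V7 and from 1.79 to 3.52 in C5, those for Tgfbr2 stay close to the reported value, and both C5 to V7 differences have intervals that cross 0.

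Other genes of the pathway were taken from a list of 65, and 14 of these, Tgfb3 and Tgfbr2 included, had a named and tested probe set. The other 51, among them Tgfb1, Tgfb2, Tgfbr1, Tgfbr3, Smad2, Smad3 and Smad7, were not analysed here. Among the 12 named besides Tgfb3 and Tgfbr2, 6 were higher and 5 lower in V7 than in WT2, and 1 did not pass, with a median change of 0.35. Names mark probe sets that the authors had listed as different, so 81.9% of all 1506 named genes tested were called too, 631 as higher and 602 as lower, with a median of 0.85, and the median over all tested probe sets was −0.13. In C5 against WT2 5 were higher, 5 lower and 2 did not pass, with a median of −0.06. There 78.6% of named genes were called, 595 as higher and 589 as lower, with a median of 0.77, and the median over all tested probe sets was −0.07. In C5 against V7 limma called 0 of the 12, against 1.06% of named genes, and 1 had an unadjusted p below 0.05. The medians in C5 against V7 were 0.02 for the 12, −0.03 for the named genes and 0.02 for all tested probe sets.

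The named receptors of related ligands split. Acvr1, a type I receptor for bone morphogenetic proteins and activins, had signals of 189.5 to 205 in WT2, 78.7 to 86.1 in V7 and 63.7 to 64.5 in C5. It fell by 1.21 in V7 and by 1.55 in C5 against WT2 (limma adjusted p = 9.47e-04 and 1.62e-04). Acvr1b, the type I receptor of activin and nodal, had signals of 175 to 206 in WT2, 81.4 to 96.5 in V7 and 81.4 to 125 in C5. It fell by 1.06 in V7 (adjusted p = 0.00635), a call lost without WT2 aliquot 1 (−0.94), without V7 aliquot 1 (−0.94), after quantile normalization (−0.99) and with the median signal added (−0.96), each below 2-fold, and with no variance trend (adjusted p = 0.0551). In C5 its change of −0.88 (adjusted p = 0.0166) was below 2-fold too, but −1.17 and called without C5 aliquot 2.

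Acvr2a, an activin type II receptor, rose where Tgfbr2 fell. Its signals were 53.4 to 87.3 in WT2, 201 to 254 in V7 and 197 to 258 in C5, a rise of 1.65 in each clone (limma adjusted p = 4.92e-04 in V7 and 4.74e-04 in C5). Its relative Acvr2b had 33.7 to 41.2 in WT2 and 0.913 to 1.75 on the other 4 arrays, below the added constant, so the size of its change of −2.74 in each clone depends on that constant. With 1 added the change was −4.06 in V7 (adjusted p = 0.0791) and −4.05 in C5 (0.0774), neither called. The V7 call (adjusted p = 0.0150) was also lost without any single WT2 or V7 array (adjusted p from 0.0579 to 0.121). The C5 call (adjusted p = 0.0144) was lost without WT2 aliquot 1 (adjusted p = 0.117) and without WT2 aliquot 2 (0.0865).

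Downstream of the receptors, Smad4, the partner that receptor-activated Smads share, rose with Tgfb3. Its signals were 1237 to 1317 in WT2, 2999 to 3054 in V7 and 2956 to 3587 in C5, a rise of 1.24 in V7 and of 1.35 in C5 (limma adjusted p = 1.70e-05 and 8.48e-06). A second probe set of Smad4 gave 1.04 and 1.34, called in both comparisons. Strap, a protein that binds TGF-beta receptors and is known to dampen their signal, had 611 to 798 in WT2, 1582 to 1943 in V7 and 1801 to 2007 in C5, a rise of 1.32 and 1.44. Its probe set is marked as shared between transcripts. Usp15, a deubiquitinase listed with the inhibitors although it is known to stabilise the receptor complex, had 17.4 to 24.4 in WT2, 48.5 to 50.8 in V7 and 37.0 to 40.3 in C5. It rose by 1.09 in V7 (adjusted p = 0.0232), a call lost without WT2 aliquot 1 (adjusted p = 0.0681), V7 aliquot 1 (0.139) or V7 aliquot 2 (0.117), with the median signal added (0.80, below 2-fold) and with no filter on low signals (adjusted p = 0.0740). In C5 its change was 0.76 (adjusted p = 0.0940). Traf6, a ubiquitin ligase of the branch that does not use Smads, had 103 to 112 in WT2, 14.0 to 24.7 in V7 and 21.03 to 25.4 in C5. It fell by 2.24 in V7 and fell by 1.99 in C5 (limma adjusted p = 3.70e-04 and 7.70e-04).

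Of the 16 listed targets of the pathway, 4 had a named probe set. In V7 against WT2, Itgae and Cdkn1a rose, Tsc22d1 fell and Id3 did not pass. Itgae, the integrin subunit that TGF-beta induces in T cells, had 14.96 to 23.4 in WT2, 117 to 146 in V7 and 95.6 to 110.3 in C5, a rise of 2.51 and 2.18 (limma adjusted p = 3.44e-05 and 9.79e-05). This probe set, too, is marked as shared between transcripts, and a second one without that mark gave 2.31 and 2.38, called in both comparisons. Cdkn1a, a cell cycle inhibitor that TGF-beta can induce, had 230.4 to 328 in WT2, 1331 to 1389 in V7 and 1281 to 1561 in C5. It rose by 2.29 and 2.34 on this probe set and by 2.17 and 2.28 on another. Tsc22d1, first found as a transcript stimulated by TGF-beta, went the other way, with 419 to 555 in WT2, 34.1 to 44.2 in V7 and 36.0 to 44.4 in C5. It fell by 3.47 in V7 and fell by 3.44 in C5, and its 2 other probe sets gave −2.58, on one marked as shared, and −3.66 in V7.

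Id3, a target best known for bone morphogenetic proteins, was the named gene not called in V7, where it had 33.7 to 49.2 against 44.6 to 67.0 in WT2 (−0.38, limma adjusted p = 0.554). In C5 it had 8.40 to 25.03 and fell by 1.57 against WT2 (adjusted p = 0.0158). That call was lost without WT2 aliquot 1 (adjusted p = 0.0870), with C5 aliquot 1 left out (0.123) and with no variance trend (0.0775). Against V7 its change of −1.19 had an adjusted p of 0.590, and it was the gene with an unadjusted p below 0.05 there.

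**Figure D3:**
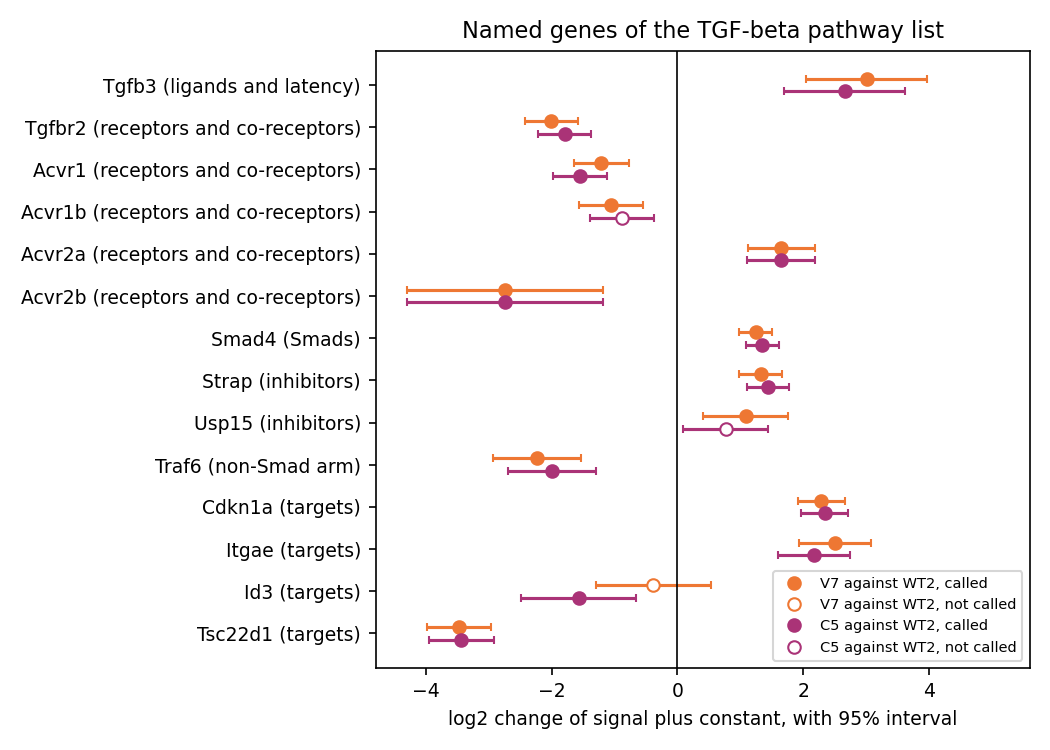
Log2 change of the 14 named pathway genes against WT2 in V7 (orange) and C5 (purple), with 95% intervals and the role of each gene as listed. Filled points were called. Tgfb3, Acvr2a, Smad4, Strap, Cdkn1a and Itgae lie to the right in both clones, and Tgfbr2, Acvr1, Acvr2b, Traf6 and Tsc22d1 to the left in both. Usp15 also lies to the right in both, and Acvr1b and Id3 to the left in both. Usp15 and Acvr1b were called in V7 only, and Id3 in C5 only.

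The likeness of other genes to the pair was measured as the distance between the 6 log2 values of a probe set, each centred on its own mean, over 1676 named and tested probe sets. Nearest to Tgfb3 were Chl1 (Cell adhesion molecule with homology to L1CAM), a neural adhesion protein, at a distance of 0.576, Lactate dehydrogenase D, a mitochondrial enzyme, at 0.604, and Decr1, an enzyme of fatty acid oxidation, at 0.688. The median distance was 2.86. All 3 had WT2 aliquots far apart, as Tgfb3 had (5.36 and 29.5). They were 0.838 and 17.4 for Chl1, 2.13 and 19.0 for Lactate dehydrogenase D and 1.49 and 17.8 for Decr1. The lower was WT2 aliquot 1 each time. For these 3 genes both signals lay below the median signals of the WT2 arrays, 20.4 and 21.5. The distance is taken over these same values, so a likeness in WT2 is built into the ranking.

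Nearest to Tgfbr2 were Adaptor protein, phosphotyrosine interaction, PH domain and leucine zipper containing 1, an endosomal adaptor, at 0.177, phosphatidylinositol glycan anchor biosynthesis, class K, part of the enzyme that attaches membrane anchors to proteins, at 0.258, and Fucosyltransferase 11 at 0.287. The median distance was 3.30. The adaptor had signals of 265 and 258 in WT2, 75.5 and 57.8 in V7 and 77.1 and 69.0 in C5. These distances describe 6 arrays of 3 clones among probe sets that the authors had listed as different.

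**Figure D4:**
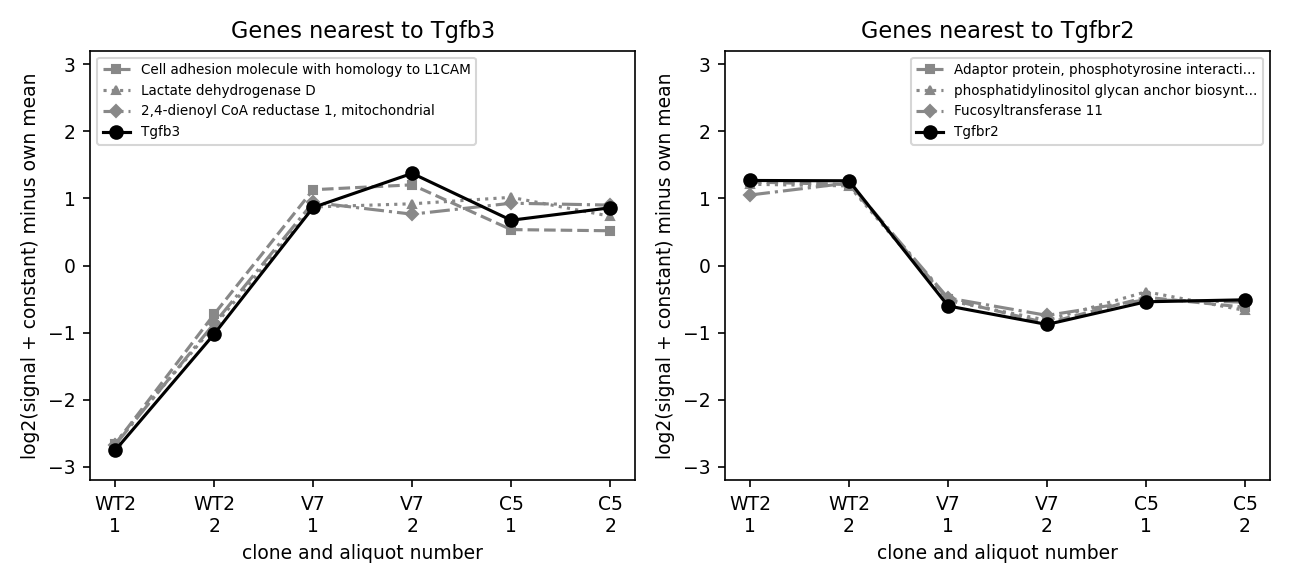
Log2(signal + 5.03) of Tgfb3 (left) and Tgfbr2 (right), in black, and of the 3 named genes nearest to each, in grey, on the 6 arrays, each centred on its own mean. Lines only join the points of one gene. On the left WT2 aliquot 1 lies below WT2 aliquot 2 for all 4 genes, and on the right the WT2 aliquots lie together.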

How the data were processed

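The deposited values are signal intensities on a linear scale, 1 per probe set and array, made by the authors with MAS5 per the submitters' processing notes, with no version given. Per the file headers, the deposited lists give log2 means and standard errors, a fold ratio, and raw and Benjamini-Hochberg p-values of a t-test over 2832 tests for V7 and WT2 and 141 for C5 and V7. The lists served for names and for the authors' values set beside the signals.

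Here 64 array controls were left out. Signals were analysed as log2(signal + 5.03), and the test was run on the 27022 probe sets whose mean signal exceeded 11.7, the 40th percentile. A model with 1 mean per clone was fitted in limma 3.58.1 (R 4.3.3) with a variance trend (3 residual and 8.47 prior degrees of freedom). Its p-values were two-sided and adjusted over all tested probe sets. The model was tested on simulated data whose spread came from these same aliquots, which cannot show whether that spread is technical. The brightest named probe set stood for a pathway gene, and symbols came from RefSeq accessions or were matched by hand. Named in the text are both members, every called list gene and the 3 genes nearest to each member, leaving out probe sets marked as shared from that search. Members and lists were chosen with earlier results of these data known. The number of arrays limits the precision. Summaries used Python 3.11.15.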

Additional observations from a re-analysis of the deposited data

How the results depend on the processing

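Tgfb3 and Tgfbr2 kept their direction and their side of the threshold in all 3 comparisons under each of 13 alternatives. These were 6 that left out 1 array each and 7 others: 1 or the median signal added, no filter, quantile normalization, no variance trend, robust prior variance and a replicate block. The size of a change cannot move with no filter, no variance trend, robust prior variance or the block. Nor can it move when the array left out is of a clone outside the comparison. Those settings could alter only the p-values of Tgfb3 and Tgfbr2. Their adjusted p reached at most 0.0318 for Tgfb3 in V7 against WT2 and 0.0410 in C5 against WT2, both without the variance trend, and 0.00365 and 0.00499 for Tgfbr2. Of the 14 named pathway genes, Tgfb3 and Tgfbr2 now included, 13 were called in V7 and 12 in C5 against WT2. The count of called pathway genes stayed between 10 and 13 in V7 and in C5 against WT2, and at 0 in C5 against V7. The count of all probe sets called between C5 and V7 was 27 and depended on the setting: 55 with the median signal added, 4 without the variance trend, 15 with the replicate block, and 5 to 68 with 1 array left out. Where an array is left out, the lone array of that clone is assumed to vary like the others. Aliquot numbers share only a number: deviations of aliquot 1 correlated between clones at −0.04, 0.00 and 0.04, so the replicate block was an alternative only. With 1 aliquot of each number per clone the block cannot move a change, 3.01 for Tgfb3 and −2.01 for Tgfbr2 in V7 against WT2. It moved their SE from 0.44 to 0.35 and from 0.19 to 0.20. Quantile normalization moved the median change of all tested probe sets in V7 against WT2 from −0.13 to 0.02 and the share of higher among all calls from 42.2% to 52.7%, and left Tgfb3 at 3.16 and Tgfbr2 at −1.95. Low signals near the added constant limit the size of the Tgfb3 change.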
